A study of Rattus norvegicus with 4 samples.

Results

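The enzymes that break glucose down to pyruvate and burn it in mitochondria were followed through 36 genes, 20 of glycolysis (glucose transporters, the enzymes from hexokinase to lactate dehydrogenase, and pyruvate dehydrogenase kinase 1) and 16 of the pyruvate dehydrogenase complex and the tricarboxylic acid (TCA) cycle. They were chosen by gene symbol, with earlier results of these data known, from 31038 rows of a ribosome profiling experiment. Each of the 36 had a row (that of Idh3b is spelled Idh3B). Ribosome profiling sequences the stretches of RNA that ribosomes shield from nuclease, here called footprints, so a gene's count rises with the number of ribosomes on its messages. Messenger RNA of the same cells was not analysed here, and footprint abundance is therefore not translational efficiency.

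Rat myocardial cells labelled NRVM were given an siRNA, either si-eIF3m (the si3m group, 2 libraries) or a control siRNA (the siNT group, 2 libraries). eIF3m is a subunit of eIF3, a factor that helps ribosomes start translation, and the series title ties it to nitrative injury of the reperfused heart. No genotype, strain, dose or time after transfection is given in the sources used here. The growth protocol, which applies to both groups, names embryonic rat heart, DMEM with serum and antibiotics, and cycloheximide was added before lysis to hold ribosomes in place. Whether the libraries of a group came from separate cultures is not stated. The p-values therefore measure the spread between these libraries, pooled in part over all genes, and that spread may be technical.

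Glycolysis splits glucose in the cytosol into pyruvate, with ATP made at the phosphoglycerate kinase and pyruvate kinase steps. Pyruvate is either reduced to lactate or carried into mitochondria, where the pyruvate dehydrogenase complex turns it into acetyl-CoA and the TCA cycle oxidizes that to carbon dioxide, loading the electron carriers used for respiration. Fetal and newborn heart cells are known to draw largely on glycolysis and lactate, whereas adult heart muscle lives mainly on fatty acids. Many steps exist as isozymes from separate genes, some of which, such as Pgam2, Eno3, Pfkm and Slc2a4, are known as the forms of striated muscle.

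Total counts were 8687598 and 6726969 in the si3m libraries and 3924434 and 3835750 in the siNT libraries, so depth differed with the group. Eif3m, the gene targeted, had 1168 and 1232 counts in the si3m libraries, against 2136 and 1774 in the siNT libraries, and its footprints fell (log2 fold change -1.59, SE 0.111, edgeR adjusted p = 3.41e-08). With robust quasi-likelihood its adjusted p was 0.0522. Markers of heart muscle cells were scarce, with 9 of 18 at no more than 6 counts in any library, Tnni3, Myl7 and Nppa at 0, and a sum of 58.2 to 74.6 CPM in si3m and 83.4 to 83.6 CPM in siNT (CPM, each count over its library total times the TMM factor, as if every library had the same size). Fibroblast markers summed to 15495 to 15563 CPM in si3m and 10919 to 11050 CPM in siNT, although Tcf21 was at 0. Smooth muscle markers summed to 3636 to 3705 CPM in si3m and 3126 to 3154 CPM in siNT. Of 8 fibroblast markers tested 7 were higher in si3m and 1 lower, beside 14.0% and 13.9% of all genes tested. Of 6 smooth muscle markers tested 1 was higher and 1 lower, of 4 heart muscle markers 1 and 2, and of 2 macrophage markers 0 and 1. Endothelial markers summed to at most 5.57 CPM and erythroid markers to at most 0.617 CPM in any library, and macrophage markers to 15.7 to 16.3 CPM in si3m and 30.8 to 34.4 CPM in siNT. In such bulk footprint samples fewer cells of a type, less RNA per cell and fewer ribosomes per message cannot be told apart. The part of these marker differences in the results was not tested.

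Summed over their members, both arms of glucose oxidation carried a smaller share of the footprints in si3m libraries. Glycolysis members held 0.221% and 0.22% of all counts in the si3m libraries, against 0.267% and 0.274% in the siNT libraries. Pyruvate dehydrogenase and TCA members held 0.159% and 0.155% in the si3m libraries, against 0.191% and 0.194% in the siNT libraries. Both sums lay lower in si3m without overlap, each with a log2 ratio of -0.29 that was not tested, and there were 1.39 and 1.42 glycolysis counts per TCA count in si3m, against 1.39 and 1.41 in siNT. These shares are of raw library totals, without the TMM factor. Scaled by total count, the median log2 fold change of all genes was -0.064, beside 0.016 with TMM scaling. Members with many counts weigh most in these sums. Pgk1, Eno1 and Pkm made up 41.3% and 41.9% of glycolysis counts in si3m and 50.6% and 50.6% in siNT. They were picked after their values were seen and all had fewer CPM in si3m, so their lower share follows from that choice. Pgam1, which was higher in si3m, had 2570 and 1926 counts there, more than Eno1 with 1624 and 1348.

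Counted gene by gene, the change was uneven. All 36 members had enough counts to be tested. With edgeR's quasi-likelihood test and Benjamini-Hochberg adjustment over 12672 genes, 5 of 20 glycolysis members fell (Hk2, Pgk1, Eno1, Pkm and Pdk1), 2 rose (Pgam1 and Eno3) and 13 did not pass. Of 16 pyruvate dehydrogenase and TCA members, 5 fell (Pdhb, Fh, Dlst, Idh2 and Suclg2), 1 rose (Cs) and 10 did not pass. Among all genes tested 13.9% were lower and 14.0% higher, while 25% of glycolysis members and 31.2% of TCA members were lower, and 10% and 6.25% higher. With a stricter filter of 50 counts in 2 samples, 1853 of 9509 genes were lower and 1798 higher. Of glycolysis members 5 of 18 were lower there and 2 higher, and of TCA members 6 of 16 and 2. The members were chosen with earlier results of these data known. How far that choice, or the count level of the members, shapes these shares was not tested. Total count scaling moved the split over all genes to 1428 higher and 2214 lower, against 1771 higher and 1757 lower with TMM scaling.

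The median log2 fold change was -0.11 over glycolysis members and -0.13 over TCA members, beside 0.02 over all tested genes, and the 2 lists were not tested against each other. The glycolysis median moved to -0.0043 without siNT replicate 1 and to -0.01 without si3m replicate 2, where the medians of all genes were 0.036 and 0.002. The TCA median moved to -0.06 without si3m replicate 1 (all genes 0.004). With total count scaling the medians were -0.19 and -0.21, beside -0.064 for all genes, which that scaling shifts together. Log2 values ran from -0.60 to 0.51 in glycolysis and from -0.83 to 0.55 in the TCA list. Their quartiles were -0.46 and 0.26 in glycolysis and -0.34 and 0.14 in the TCA list, beside -0.33 and 0.39 over all genes. In 26 of the 36 members the 2 si3m values lay both above or both below the siNT values, as in 63.9% of all genes tested.

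**Figure D1:**
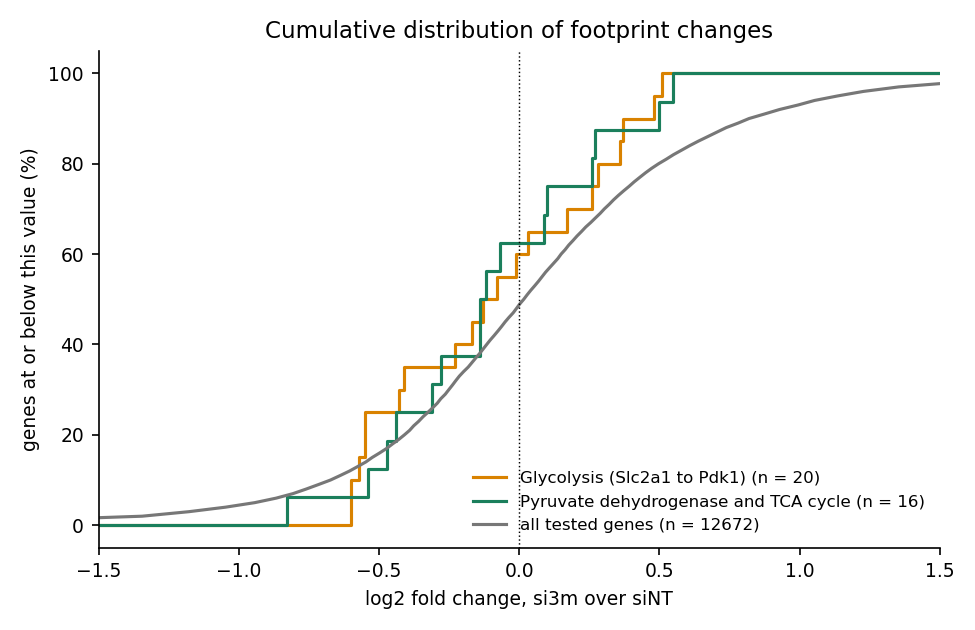
Cumulative share of genes (vertical axis, %) at or below each log2 fold change of si3m over siNT (horizontal axis), for 20 glycolysis members, 16 pyruvate dehydrogenase and TCA members and all 12672 tested genes, drawn from -1.5 to 1.5. Both member curves run left of that of all genes from about the middle upward and end near 0.5, with medians of -0.11 and -0.13 beside 0.02.

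**Figure D2:**
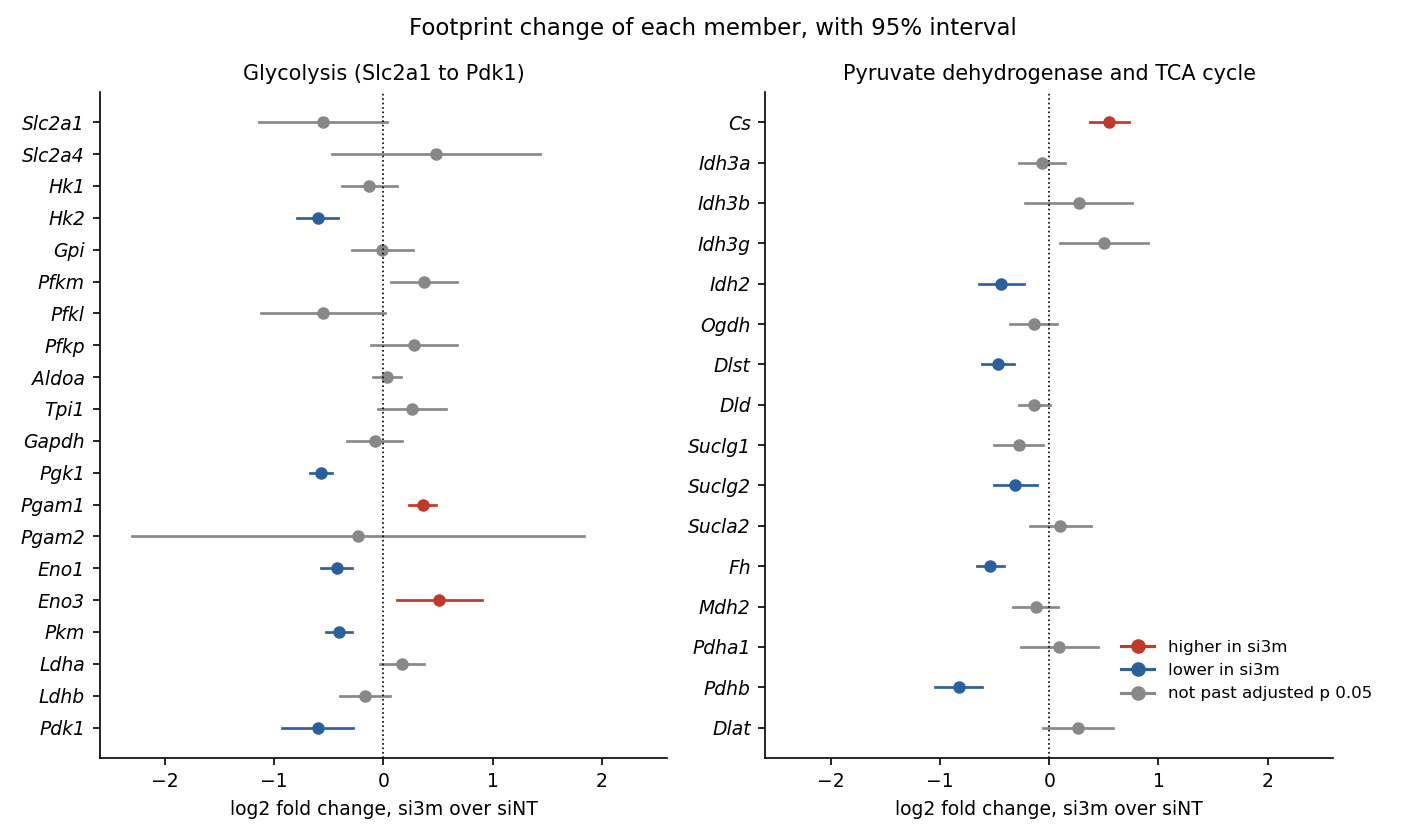
Log2 fold change of si3m over siNT (horizontal axis) for each of the 36 members in pathway order, with bars for the 95% interval from the quasi-likelihood fit (2 libraries per group). Of glycolysis members 5 lie to the left past the threshold and 2 to the right, and of TCA members 5 and 1. The bar of Pgam2, the member with fewest counts, is the widest.

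Glucose enters through facilitated transporters, of which Slc2a1 (GLUT1) is the basal form and Slc2a4 (GLUT4) the insulin-responsive form of muscle and fat. Slc2a1 had 9.62 and 10.2 CPM in si3m libraries, against 16.4 and 12.7 CPM in siNT libraries. Both si3m values were lower, yet the log2 fold change of -0.55 (95% interval -1.14 to 0.03) did not pass (edgeR adjusted p = 0.154). Slc2a4 had 7.04 and 5.55 CPM in si3m and 2.98 and 6.08 CPM in siNT, which overlapped (log2 0.48, interval -0.47 to 1.43). At 12 to 60 counts per library the value of Slc2a4 rested on single libraries, with log2 0.06 without siNT replicate 1 and 1.09 without siNT replicate 2.

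Hexokinase traps glucose in the cell as glucose 6-phosphate. Hk2, the inducible form of muscle and growing cells, had 104 and 94 CPM in si3m libraries, against 147 and 154 CPM in siNT libraries. It fell 1.52-fold (log2 -0.60, SE 0.0867, edgeR adjusted p = 8.14e-05), with both si3m libraries below both siNT libraries. Hk1, the housekeeping form, had 90.8 and 76.8 CPM in si3m and 84.8 and 99.3 CPM in siNT, which overlapped (log2 -0.13, adjusted p = 0.449). Within each library, the count of Hk2 per count of Hk1 was 1.14 and 1.22 in si3m, against 1.74 and 1.55 in siNT, a ratio that does not depend on scaling.

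The steps from glucose 6-phosphate to the triose phosphates held no member past the threshold. Gpi, which isomerizes glucose 6-phosphate, had 66.7 and 59.5 CPM in si3m and 68.5 and 58.7 CPM in siNT (log2 -0.01, interval -0.29 to 0.27), and its sign changed with the settings. Aldoa, the muscle-type aldolase, had 228 and 219 CPM in si3m and 218 and 220 CPM in siNT (log2 0.03, interval -0.10 to 0.16). It turned to -0.05 with total count scaling and to -0.01 with thinned counts. Tpi1, triose phosphate isomerase, had 53.5 and 60.1 CPM in si3m libraries, against 43.2 and 51.7 CPM in siNT libraries, higher without overlap and not past the threshold (log2 0.26, adjusted p = 0.212).

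Phosphofructokinase, the committed step, is built from muscle, liver and platelet subunits that can mix in a tetramer. Pfkm, the muscle subunit, had 55.6 and 61.7 CPM in si3m libraries, against 43.7 and 47.1 CPM in siNT libraries (log2 0.37, interval 0.07 to 0.67, edgeR adjusted p = 0.0634). Pfkl, the liver subunit, had 13.6 and 10.2 CPM in si3m, against 15.4 and 19.8 CPM in siNT (log2 -0.55, interval -1.12 to 0.01, adjusted p = 0.14). Neither passed over all libraries, although the groups overlapped for neither gene and Pfkl passed without siNT replicate 1 (log2 -0.72, adjusted p = 0.0466). Pfkp, the platelet subunit, had 38.7 and 31.5 CPM in si3m and 30.8 and 27.3 CPM in siNT (log2 0.28, adjusted p = 0.292). There were 0.245 and 0.165 Pfkl counts per Pfkm count in si3m libraries, against 0.352 and 0.419 in siNT libraries, on 62 to 116 Pfkl counts per library.

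**Figure D3:**
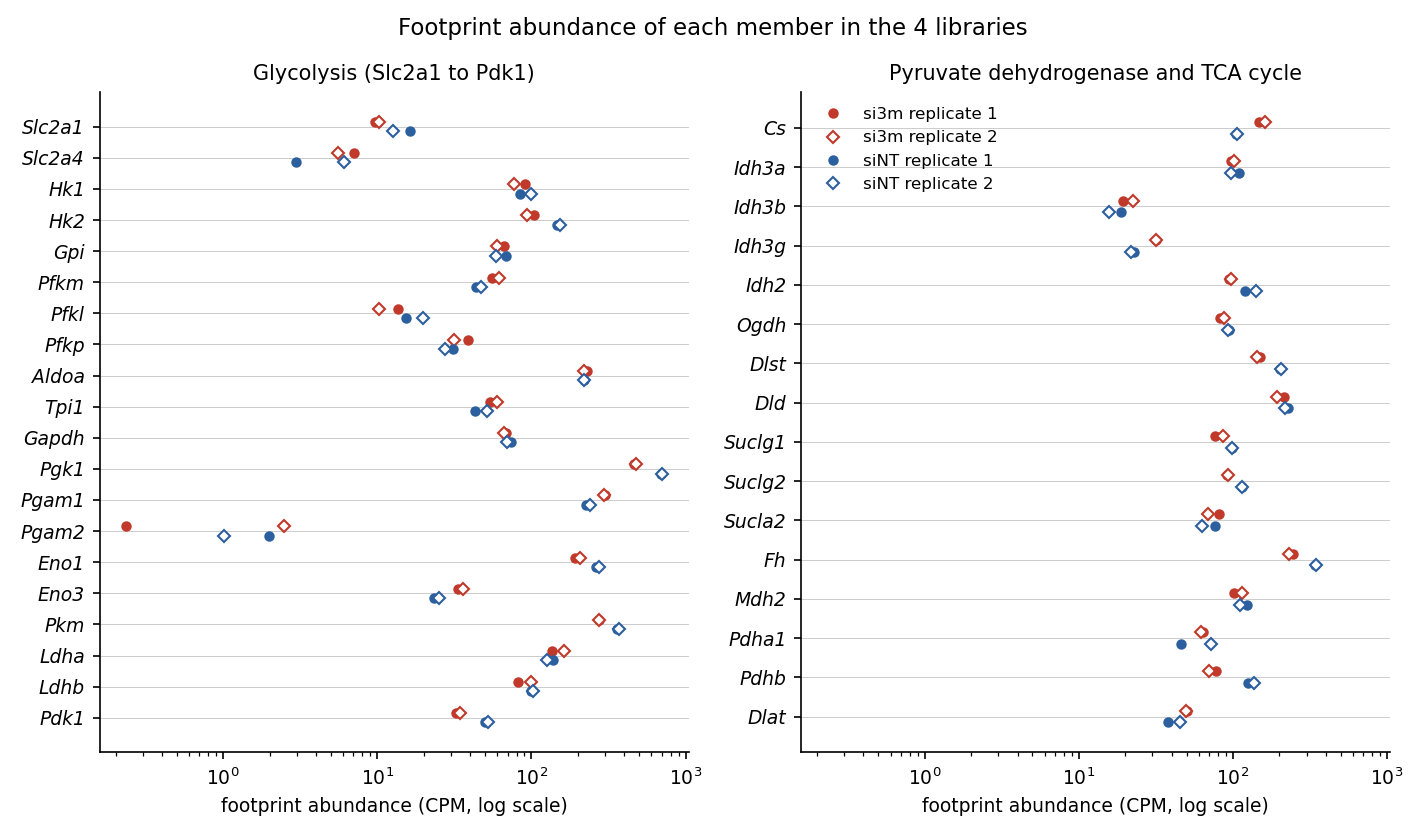
Footprint abundance of each member in the 4 libraries (horizontal axis, TMM-scaled CPM on a log scale), with si3m replicates above siNT replicates for each gene. Pgk1 lies at 465 to 474 CPM in si3m and 692 to 702 CPM in siNT, whereas Pgam2 lies at 0.235 to 2.47 CPM in si3m and 1.01 to 1.98 CPM in siNT. Levels are not divided by gene length, so genes cannot be ranked from it.

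Footprints of both ATP-making enzymes of glycolysis fell. Pgk1, phosphoglycerate kinase, had 465 and 474 CPM in si3m libraries, against 692 and 702 CPM in siNT libraries. It fell 1.48-fold (log2 -0.57, SE 0.049, edgeR adjusted p = 3.52e-07), and its interval of -0.67 to -0.47 was the narrowest of the 36. Pkm, pyruvate kinase of muscle and proliferating cells, had 276 and 274 CPM in si3m, against 359 and 370 CPM in siNT, and fell 1.33-fold (log2 -0.41, SE 0.0558, adjusted p = 5.22e-05). In both genes the gap between the groups was far wider than that between replicates. The counts cannot separate the Pkm1 and Pkm2 splice forms.

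Gapdh, which oxidizes glyceraldehyde 3-phosphate and is often used as a constant reference, had 68.1 and 66.8 CPM in si3m libraries, against 73.2 and 69.4 CPM in siNT libraries (log2 -0.08, interval -0.33 to 0.17), and did not pass. After phosphoglycerate kinase, footprints of the mutase Pgam1 and the enolase Eno1 moved in opposite directions. Pgam1, the non-muscle phosphoglycerate mutase, had 302 and 297 CPM in si3m, against 226 and 241 CPM in siNT, and rose 1.28-fold (log2 0.36, SE 0.059, edgeR adjusted p = 2.87e-04). Its muscle counterpart Pgam2 had 2 and 16 counts in si3m and 8 and 4 in siNT, too few to give a direction. Eno1, the ubiquitous enolase, had 191 and 208 CPM in si3m, against 261 and 275 CPM in siNT, and fell 1.35-fold (log2 -0.43, SE 0.0642, adjusted p = 1.16e-04).

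Eno3, the muscle enolase, moved the other way, with 33.2 and 36.1 CPM in si3m libraries, against 23.3 and 25.3 CPM in siNT libraries. Its rise only just passed (log2 0.51, SE 0.183, edgeR adjusted p = 0.0499). The call was lost under 7 of 14 alternatives, among them without siNT replicate 1 (0.119), without si3m replicate 1 (0.127) and without si3m replicate 2 (0.274). In the GRCr8 annotation Eno3 overlaps Spag7, whose own row had 102 and 80 counts in si3m and 30 and 34 in siNT, so its counts are uncertain. Counts of Eno1 per count of Eno3 were 5.74 and 5.76 in si3m, against 11.2 and 10.9 in siNT, and the replicates differed far less than the groups.

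Lactate dehydrogenase exchanges pyruvate and lactate, with the A subunit known from glycolytic tissue and the B subunit from heart. Ldha had 136 and 162 CPM in si3m libraries and 137 and 127 CPM in siNT libraries, which overlapped (log2 0.17, edgeR adjusted p = 0.201; without si3m replicate 1 it passed, with log2 0.30 and adjusted p = 0.0345). Ldhb had 82.2 and 99 CPM in si3m, against 100 and 103 CPM in siNT (log2 -0.17, adjusted p = 0.266). Neither gene passed alone over all libraries, but each library of si3m held more Ldha per Ldhb, with count ratios of 1.65 and 1.63 in si3m, against 1.37 and 1.23 in siNT.

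Pdk1, the kinase that switches the pyruvate dehydrogenase complex off, had 32.6 and 34.5 CPM in si3m libraries, against 49.6 and 52.4 CPM in siNT libraries. It fell 1.52-fold (log2 -0.60, SE 0.152, edgeR adjusted p = 0.00753), and did not pass without si3m replicate 1 (log2 -0.55, adjusted p = 0.0673). Its relatives were read from a list of other genes of the pathway. Pdk3 had 35 and 35.8 CPM in si3m and 38.7 and 44.1 CPM in siNT and did not pass (log2 -0.23, adjusted p = 0.326), and Pdk2 and Pdk4 had at most 5.06 CPM in any library.

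Pdhb, the beta subunit of the E1 enzyme that decarboxylates pyruvate, had 77.5 and 69.4 CPM in si3m libraries, against 126 and 137 CPM in siNT libraries. It fell 1.78-fold (log2 -0.83, SE 0.0999, edgeR adjusted p = 1.31e-05), the largest change among the 36 members, and kept its call under all 14 alternatives. Its partner Pdha1, the alpha subunit with which it forms a tetramer of equal parts, had 63.7 and 62.1 CPM in si3m and 46.1 and 71.9 CPM in siNT. Those values overlapped, and the log2 fold change of 0.09 turned to -0.19 without siNT replicate 1 and to 0.45 (adjusted p = 0.0302) without siNT replicate 2. Pdhb counts per Pdha1 count, a ratio chosen after the values were seen, were 1.22 and 1.12 in si3m, against 2.72 and 1.9 in siNT. The siNT replicates differed widely here through Pdha1.

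The other parts of the complex did not pass. Dlat, the E2 core that carries the acetyl group, had 50 and 49.5 CPM in si3m libraries, against 38 and 45.1 CPM in siNT libraries (log2 0.26, interval -0.06 to 0.58). Dld, the E3 enzyme that the pyruvate and 2-oxoglutarate dehydrogenases share, had 213 and 192 CPM in si3m, against 227 and 219 CPM in siNT (log2 -0.14, edgeR adjusted p = 0.158), and passed with total count scaling only (log2 -0.22, adjusted p = 0.0347).

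The start sites of 4 genes, picked after their values were seen, are shown. They set side by side the E1 subunits, of which Pdhb fell and Pdha1 did not pass, and Pdk1 and Ldha. The last 2 are among the textbook targets of hypoxia-inducible factor, and Pdk1 fell while Ldha did not pass. Each runs from 250 bases before to 50 after the annotated start in RefSeq's GRCr8 assembly, on the gene's strand. Capitals mark ACGTG on either strand, a form of the core of the hypoxia response element, which also lies inside the E-box CACGTG. The other form of that core, GCGTG, was neither searched nor marked.
Pdhb, chr15:19182539-19182838 (+): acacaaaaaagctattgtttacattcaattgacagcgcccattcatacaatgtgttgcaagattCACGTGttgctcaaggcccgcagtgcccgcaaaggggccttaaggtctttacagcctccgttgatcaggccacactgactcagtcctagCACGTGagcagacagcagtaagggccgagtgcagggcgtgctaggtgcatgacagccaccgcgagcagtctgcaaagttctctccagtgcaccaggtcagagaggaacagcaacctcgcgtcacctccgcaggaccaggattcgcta
Pdha1, chrX:38508908-38509207 (+): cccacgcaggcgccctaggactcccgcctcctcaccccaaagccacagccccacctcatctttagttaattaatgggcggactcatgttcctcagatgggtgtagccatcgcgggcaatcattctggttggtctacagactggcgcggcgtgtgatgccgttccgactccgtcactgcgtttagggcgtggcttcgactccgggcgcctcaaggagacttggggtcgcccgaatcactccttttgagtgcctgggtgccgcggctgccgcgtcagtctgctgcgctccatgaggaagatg
Pdk1, chr3:77113264-77113563 (+): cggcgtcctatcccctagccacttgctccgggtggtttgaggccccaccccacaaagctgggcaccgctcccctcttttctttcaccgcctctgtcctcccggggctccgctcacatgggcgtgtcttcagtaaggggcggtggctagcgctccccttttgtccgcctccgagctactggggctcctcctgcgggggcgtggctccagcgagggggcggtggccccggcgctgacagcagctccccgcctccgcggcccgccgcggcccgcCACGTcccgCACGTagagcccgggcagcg
Ldha, chr1:106507842-106508141 (+): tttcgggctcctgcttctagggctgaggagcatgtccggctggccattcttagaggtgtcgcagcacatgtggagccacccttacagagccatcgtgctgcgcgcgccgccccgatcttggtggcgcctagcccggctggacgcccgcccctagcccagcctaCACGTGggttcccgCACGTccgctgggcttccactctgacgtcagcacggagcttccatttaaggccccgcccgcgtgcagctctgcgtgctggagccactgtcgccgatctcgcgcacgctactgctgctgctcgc
Pdhb held 2 copies of CACGTG, and Pdk1 had ACGTG at 2 places, both after the annotated start. Ldha had 1 copy of CACGTG with 1 further ACGTG, and Pdha1 had no ACGTG in this window. The table held a promoter for 18 glycolysis and 15 TCA members, and ACGTG occurred in 7 and 5 of them, beside 19.3% of 33365 distinct promoters. CACGTG, which always brings ACGTG with it, occurred in 1 and 2, beside 6.43%. Among the glycolysis members that fell, 1 of 4 with a promoter held ACGTG, and among those that did not pass, 5 of 12. Among the TCA members the shares were 2 of 5 and 3 of 9. A match describes these letters and is not a binding site.

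Cs, citrate synthase, which joins acetyl-CoA to oxaloacetate at the entry of the cycle, was the member of the TCA list that rose. It had 147 and 162 CPM in si3m libraries, against 105 and 106 CPM in siNT libraries, a 1.46-fold rise (log2 0.55, SE 0.0851, edgeR adjusted p = 1.69e-04) that passed under all 14 alternatives.

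Isocitrate is oxidized either by Idh3, the NAD-dependent enzyme of the cycle made of alpha, beta and gamma subunits, or by the NADP-dependent Idh2 of mitochondria. Idh2 had 94.6 and 96.8 CPM in si3m libraries, against 119 and 140 CPM in siNT libraries, and fell 1.35-fold (log2 -0.44, SE 0.0965, edgeR adjusted p = 0.0031). Idh3g, the regulatory gamma subunit, had 31.7 and 31.5 CPM in si3m, against 22.8 and 21.8 CPM in siNT, higher without overlap and just short of the threshold (log2 0.50, adjusted p = 0.061). With the stricter count filter it passed (adjusted p = 0.0475). Idh3b had 19.2 and 22.5 CPM in si3m and 18.9 and 15.7 CPM in siNT (log2 0.27, adjusted p = 0.423). The catalytic subunit Idh3a had 96.7 and 101 CPM in si3m and 110 and 97.7 CPM in siNT, which overlapped (log2 -0.07, interval -0.28 to 0.14).

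The 2-oxoglutarate dehydrogenase complex is assembled like that of pyruvate. Dlst, its E2 core, had 150 and 144 CPM in si3m libraries, against 201 and 206 CPM in siNT libraries, and fell 1.38-fold (log2 -0.47, SE 0.0696, edgeR adjusted p = 1.15e-04). Ogdh, its E1 enzyme, had 82.3 and 86.8 CPM in si3m, against 94.3 and 92.2 CPM in siNT (log2 -0.14, interval -0.36 to 0.07). Ogdh did not pass, and Dld, the third enzyme of the complex, is described above.

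Succinyl-CoA synthetase pairs the alpha subunit Suclg1 with a beta subunit, Suclg2 for the GTP-forming enzyme or Sucla2 for the ATP-forming one. Suclg2 had 91.5 and 92.5 CPM in si3m libraries, against 114 and 114 CPM in siNT libraries, and fell 1.24-fold (log2 -0.31, SE 0.092, edgeR adjusted p = 0.0196). It lost the call without si3m replicate 1 (0.125), without si3m replicate 2 (0.0944) and in DESeq2 (0.0651). Suclg1 had 76.8 and 85.7 CPM in si3m, against 99.2 and 98.2 CPM in siNT, and just missed the threshold (log2 -0.28, adjusted p = 0.0548), passing under 6 of 14 alternatives. Sucla2 had 81 and 68.8 CPM in si3m and 76.9 and 63.3 CPM in siNT, which overlapped (log2 0.10, adjusted p = 0.627), turning to -0.03 without siNT replicate 2 and -0.02 without si3m replicate 1. Sucla2 counts per Suclg2 count were 0.885 and 0.743 in si3m, against 0.677 and 0.553 in siNT.

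Fh, the fumarase of the cycle, had 244 and 232 CPM in si3m libraries, against 343 and 346 CPM in siNT libraries. It fell 1.45-fold (log2 -0.54, SE 0.0576, edgeR adjusted p = 4.35e-06), next to Pdhb the largest fall of the TCA list. Mdh2, which regenerates oxaloacetate, had 101 and 115 CPM in si3m and 124 and 111 CPM in siNT, which overlapped (log2 -0.12, interval -0.33 to 0.08).

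**Figure D4:**
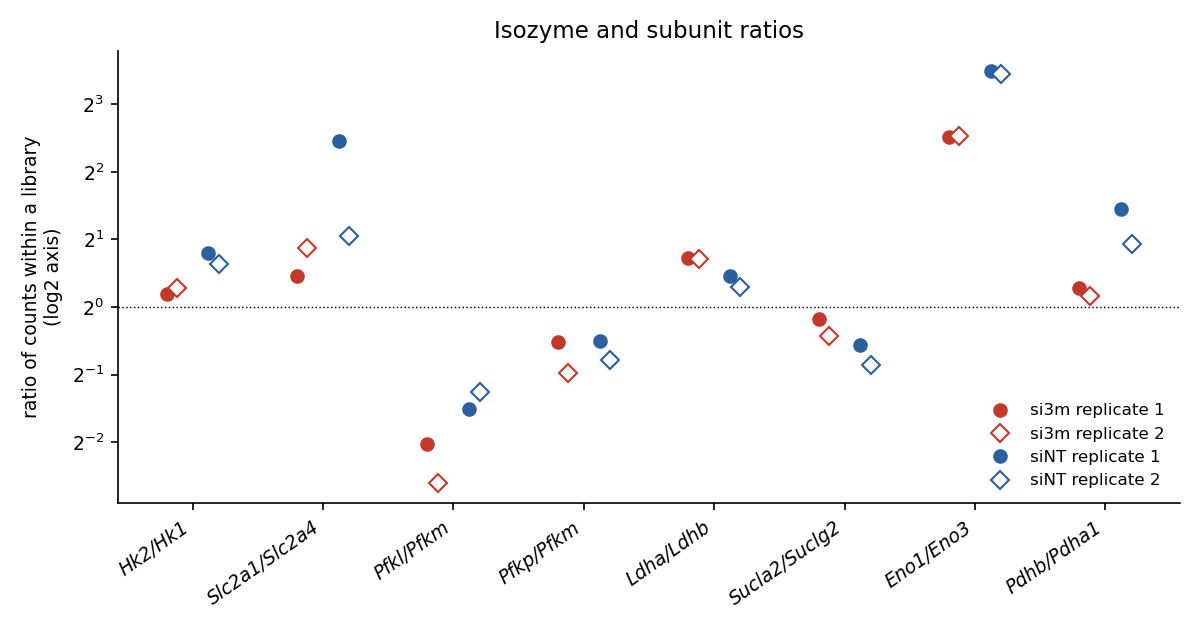
Ratio of counts of paired isozymes or subunits within each library (vertical axis, log2 scale), 2 si3m libraries left of 2 siNT libraries for each pair. Pdhb/Pdha1 was added after its values were seen. The Eno1/Eno3 points lie at 5.74 and 5.76 in si3m and 11.2 and 10.9 in siNT, and the widest spread between replicates is that of Slc2a1/Slc2a4 in siNT, at 5.5 and 2.08.

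Ratios within a library describe how the counts of paired isozymes differed between the groups. On the log2 scale the si3m minus siNT difference was -0.94 for Eno1/Eno3, -0.94 for Pfkl/Pfkm, -0.47 for Hk2/Hk1, 0.34 for Ldha/Ldhb and 0.41 for Sucla2/Suclg2. The last moved to 0.26 without siNT replicate 2. The Pfkl/Pfkm difference was -0.65 without si3m replicate 2 and -1.22 without si3m replicate 1. For Pfkp/Pfkm it was -0.10, the groups overlapped, and its sign turned without siNT replicate 1 (0.04) and without si3m replicate 2 (0.12), and it was -0.33 without si3m replicate 1. The Slc2a1/Slc2a4 ratio was 1.37 and 1.83 in si3m, against 5.5 and 2.08 in siNT, a difference of -1.10 that moved to -0.40 without siNT replicate 1 and -1.80 without siNT replicate 2. The pair Pgam1/Pgam2 had too few counts to be given. With 2 libraries per group no exact permutation test could reach 0.05, and these ratios have no test. Groups that did not overlap were found in 63.9% of all genes tested, and no such share was computed for ratios.

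A list of 64 further genes, also chosen with earlier results of these data known, set the members in their surroundings. Of 30 other glycolysis genes 29 had a row in the table and 17 were tested, and 5 rose (29.4%) while 1 fell (5.88%), beside 14.0% and 13.9% of all genes. Slc2a3 (GLUT3, a transporter of high affinity) had 104 and 92.7 CPM in si3m libraries, against 61.5 and 70.6 CPM in siNT libraries, and rose (log2 0.58, SE 0.116, edgeR adjusted p = 0.0015). Enzymes of the Pfkfb family make and break fructose 2,6-bisphosphate, an activator of phosphofructokinase. Pfkfb3, the inducible form with mainly kinase activity, had 101 and 87.9 CPM in si3m, against 62 and 67.9 CPM in siNT, and rose (log2 0.54, adjusted p = 0.00256). Pfkfb2, the heart form, had 74.6 and 77.7 CPM in si3m, against 113 and 108 CPM in siNT, and fell (log2 -0.53, adjusted p = 7.84e-04). Pfkfb1 (log2 0.18, adjusted p = 0.762) and Tigar, a phosphatase of the same metabolite (log2 -0.23, adjusted p = 0.437), did not pass, and Pfkfb4 had too few counts to be tested.

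The lactate and pyruvate transporter Slc16a1 (MCT1) had 182 and 171 CPM in si3m libraries, against 151 and 129 CPM in siNT libraries, and rose (log2 0.34, edgeR adjusted p = 0.00698; 0.0517 without siNT replicate 2). Pgm2, of the phosphoglucomutase family, rose (log2 0.77, adjusted p = 0.00829), with 35.7 and 41.9 CPM in si3m and 26 and 19.2 CPM in siNT. It kept its call under 13 of 14 alternatives, and was at log2 0.66 without si3m replicate 2. Pgm1, of the same family, leaned the other way and did not pass (log2 -0.49, adjusted p = 0.0577). Pck2, the mitochondrial enzyme that makes phosphoenolpyruvate from oxaloacetate, rose (log2 0.81, adjusted p = 0.0233; 0.265 without si3m replicate 1), with 24.9 and 18.8 CPM in si3m and 11.9 and 13.2 CPM in siNT.

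Of 34 other genes of pyruvate handling and the TCA cycle 32 were tested, and 5 rose (15.6%) while 6 fell (18.8%), shares near those of all genes. The number that fell was 2 without siNT replicate 2 or si3m replicate 1 and 3 without si3m replicate 2. Mpc1, of the carrier that brings pyruvate into mitochondria, had 60.1 and 64.1 CPM in si3m libraries, against 140 and 149 CPM in siNT libraries. It fell 2.33-fold (log2 -1.22, SE 0.0965, edgeR adjusted p = 1.41e-07), further than any of the 36 members, and passed under all 14 alternatives. Mpc2, its partner in the carrier, had 89 and 94.4 CPM in si3m, against 84.8 and 76 CPM in siNT, and did not pass (log2 0.19, adjusted p = 0.221).

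Idh1, the cytosolic NADP-dependent isocitrate dehydrogenase, had 81 and 78.6 CPM in si3m libraries, against 132 and 116 CPM in siNT libraries, and fell (log2 -0.64, SE 0.0993, edgeR adjusted p = 1.74e-04), as its mitochondrial relative Idh2 did. Sdhb, the iron-sulfur subunit of succinate dehydrogenase, had 53.2 and 50.3 CPM in si3m, against 67.5 and 71.9 CPM in siNT (log2 -0.43, adjusted p = 0.0193). Its call was lost when siNT replicate 2 (0.0667), si3m replicate 1 (0.0669) or si3m replicate 2 (0.135) was left out. Sdhc, Ogdhl and Pdp2, named after their values were seen, also fell (log2 -0.38, -0.87 and -0.57, edgeR adjusted p = 0.0207, 0.0337 and 0.0432). The other subunits of succinate dehydrogenase, Sdha (log2 -0.35, adjusted p = 0.0688) and Sdhd (log2 0.10, adjusted p = 0.649), did not pass.

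The 5 that rose were carriers of the inner mitochondrial membrane, transaminases and a dehydrogenase around the cycle. Slc25a11, the carrier that exchanges 2-oxoglutarate for malate, had 24.6 and 17 CPM in si3m libraries, against 7.44 and 6.08 CPM in siNT libraries (log2 1.63, SE 0.292, edgeR adjusted p = 6.01e-04). Slc25a1, the citrate carrier, had 45.5 and 43.2 CPM in si3m, against 14.9 and 22.3 CPM in siNT (log2 1.26, SE 0.202, adjusted p = 2.31e-04). Got1, the aspartate aminotransferase of the cytosol, had 126 and 120 CPM in si3m, against 79.6 and 74.4 CPM in siNT (log2 0.68, adjusted p = 7.71e-05). Got2, its mitochondrial counterpart, had 252 and 237 CPM in si3m, against 186 and 193 CPM in siNT (log2 0.37, adjusted p = 4.41e-04). Mdh1, the cytosolic malate dehydrogenase, had 186 and 167 CPM in si3m, against 115 and 135 CPM in siNT (log2 0.50, adjusted p = 6.32e-04), and all 5 passed under every one of the 14 alternatives.

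Slc25a11, Got1, Got2 and Mdh1 are known, with Mdh2 and the aspartate carriers Slc25a12 and Slc25a13, as the malate-aspartate shuttle, which carries reducing equivalents of glycolysis into mitochondria. This grouping was made after the values were seen and has no test. The aspartate carriers did not pass, Slc25a12 having 20.4 and 21.3 CPM in si3m and 20.8 and 15.2 CPM in siNT, and Slc25a13 having 22.1 and 14.5 CPM in si3m and 27.3 and 13.2 CPM in siNT.

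Of the 36 members 8 overlap a gene with a row of its own in the GRCr8 annotation (Pfkm, Aldoa, Tpi1, Eno3, Idh3b, Dlst, Mdh2 and Pdha1), and without a stated strand setting their counts are uncertain to that extent. For Dlst, Aldoa, Mdh2 and Pdha1 the overlapping row held at most 8 counts in any library. Senp1, which overlaps Pfkm, had 192 and 112 counts in si3m and 94 and 110 in siNT, Nop56, which overlaps Idh3b, 250 and 204 in si3m and 90 and 138 in siNT, and Spsb2, which overlaps Tpi1, at most 24. Gapdh, Pgk1, Aldoa, Eno1, Ldha, Pgam1 and other glycolytic genes are known for processed pseudogenes, with which short footprints can be shared, and how reads with several matches were counted is not given in the sources used here. The row Gapdh-ps1 held 2 to 6 counts per library.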

How the data were processed

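Ribosome footprints were counted in 2 si3m and 2 siNT libraries. The deposited values are raw counts, 1 whole number per gene and library. The submitters' processing notes list featureCounts, HISAT2 2.2.1, Trimmomatic 0.40, DESeq2, limma and the build rn6, with no roles; annotation and strand setting are not stated there. Between 94.9% and 97.3% of counts above 0 were even, so most fragments may have been counted as 2 reads. Precision is limited by total counts of 3835750 to 8687598 per library, and the replicates varied 1.48 (si3m) and 1.4 (siNT) times as much as counting noise (median chi-square on halved counts).

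From the counts, edgeR 4.0.16 in R 4.3.3 was run on the whole table: filterByExpr (minimum count 10), TMM scaling, glmQLFit and glmQLFTest, two-sided, Benjamini-Hochberg adjustment, threshold 0.05, no replicate block. Replicate numbers were not used as pairs, as the labels tie them to nothing shared. SEs are the log2 fold change over the square root of F, and intervals use that SE with the fit's degrees of freedom.

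On counts simulated for this comparison from 12672 genes, 28% of 75 genes with a 1.5-fold difference passed, as did 77.6% of 58 with a 2-fold and 98.3% of 60 with a 4-fold difference, and 10 of 12236 unchanged ones. Most members changed less than 1.5-fold, and changes of that size can be missed. How many cannot be read from the simulation. It changed few genes, drawn at all count levels with 1 common dispersion, whereas 3528 genes were called in the data.

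Alternatives were scaling by total count, by upper quartile and by DESeq2 size factors, no filter, a stricter filter (50 counts in 2 samples), DESeq2 1.42.0, robust quasi-likelihood, the replicate block, counts thinned to 3835750, counts divided by 2 and each library left out. The members and lists were chosen with earlier results of these data known. Named were all members, Eif3m and, of the other lists, up to 8 called genes of at least 10 mean CPM each. Of the other lists, Pdk2, Pdk3, Pdk4, Pfkfb1, Pfkfb4, Tigar, Pgm1, Mpc2, Slc25a12, Slc25a13, Sdha, Sdhc, Sdhd, Ogdhl and Pdp2 were named outside this rule. Levels per coding length were planned and not computed, since no coding lengths were used here, so levels are not compared between genes. The result of 1 gene of the other lists is not reported here. Symbols of all 36 members matched RefSeq's GRCr8 table, used for names, overlaps and promoters (Hk1, Aldoa and Eno1 have several, of which the first listed was taken).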

Additional observations from a re-analysis of the deposited data

How the results depend on the processing

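Of the 13 members past the threshold, 10 stayed past it under all 14 alternatives and all 13 kept their sign; Eno3, Pdk1 and Suclg2 lost the call as given above. Pairing by replicate number was weighed only as a check: the replicate differences of si3m and siNT correlated at -0.0218 across genes, and with the replicate block 3694 genes were called instead of 3528, with 5 glycolysis members lower and 2 higher and 5 TCA members lower and 1 higher, while the other glycolysis genes lower numbered 2 and no member's call changed. Glycolysis members higher numbered 1 with DESeq2 size factors, total count scaling, no low-count filter and the DESeq2 test. TCA members higher numbered 2 with the stricter filter. TCA members lower numbered 7 with total count scaling and 4 with the DESeq2 test. They numbered 6 with DESeq2 size factors, the stricter filter, robust quasi-likelihood, thinned counts and counts divided by 2. Glycolysis members lower numbered 5 in every setting that kept all libraries. With a library left out, the number of members lower moved in both lists. Other glycolysis genes lower numbered 2 with total count scaling, the stricter filter, robust quasi-likelihood and thinned counts. The glycolysis median was -0.09 with upper quartile scaling, -0.19 with total count scaling, and -0.08 with no low-count filter and with counts divided by 2; the TCA median was -0.21 with total count scaling. Leaving out each library in turn (a lone library being assumed to vary like the other group) gave 1 to 2 glycolysis members higher, a glycolysis median from -0.11 to -0.0043, 1 to 2 TCA members higher, a TCA median from -0.16 to -0.06, 1 to 2 other glycolysis genes lower and 2 to 6 other pyruvate or TCA genes lower. Signs turned for members that had not passed: Gpi (0.01 with upper quartile scaling and with no filter, 0.11 without siNT replicate 1 and 0.08 without si3m replicate 2), Aldoa (-0.05 with total count scaling and -0.01 with thinned counts), Sucla2 (-0.03 without siNT replicate 2 and -0.02 without si3m replicate 1), and, without siNT replicate 1, Pgam2 (0.35), Idh3a (0.02) and Pdha1 (-0.19), whose ranges over the left-out libraries were -0.61 to 0.35, -0.14 to 0.02 and -0.19 to 0.45, that of Sucla2 being -0.03 to 0.25. The number of genes called over the whole table lay between 2538 and 3779. Thinned counts moved the Eno1/Eno3 difference to -1.02. The cause of these differences was not tested. Slc2a1, Slc2a4, Pfkl and Pgam2, at 2 to 116 counts per library, are the members whose depth allows least.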
